A study of Arabidopsis thaliana with 38 samples.

Results

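The probe sets described here are those with a higher level in the *hsp90.2-3* mutant than in Col-0 and, in 6 of the other 8 HSP90-reduced lines, changes below set limits. RNAi-A1 and RNAi-A3 were not part of the choice. They were chosen by a rule on line means of log2(signal + 16), where the signal is the brightness that the MAS5 algorithm gives a probe set, a group of short probes designed for 1 transcript. The rule asked for a mean signal over 100 in *hsp90.2-3*, a log2 change of at least 1 against Col-0, a change under 0.4 in each HSP90-TDNA line against Col-0, and a change under 0.3 in each of RNAi-A2, RNAi-B1 and RNAi-C1 against the average of 2 control lines, Control-1 and Control-3. It found 2 of the 22746 probe sets of the ATH-1 array, 251282_at and 248337_at. The probe table used here pairs neither of them with a gene, so both are given by their probe set ID and no function can be stated for them. The values of all the lines named in the rule chose the members and are descriptions. Their changes are given with no test, and p-values of Control-3 against Control-1 are given as descriptions only.

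HSP90 is a chaperone that helps unstable client proteins, many of them in signalling pathways, to reach and keep their active form, and it spends ATP in doing so. *Arabidopsis* has several cytosolic HSP90 proteins, of which HSP90.1 is induced by heat and the others, HSP90.2 among them, are made constitutively. Mutants of the ATP-binding domain can differ from plants that lack the protein, since a protein that cannot complete its ATP cycle may hold on to its clients.

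All 35 biological samples were aerial tissue pooled from seedlings aged 14 days in the Col-0 background, and they were hybridised to 38 arrays, some samples to more than 1. The *hsp90.2-3* line carries a point mutation in the ATP-binding domain of HSP90.2 and has 3 samples. The 3 HSP90-TDNA lines each carry a T-DNA insertion in the gene of their name (HSP90.1-TDNA in *HSP90.1*, and likewise for *HSP90.2* and *HSP90.3*) and have 3 samples each, as does their control, untransformed Col-0. RNAi-A1, RNAi-A2 and RNAi-A3 carry hairpin construct A against cytosolic HSP90, and RNAi-B1 and RNAi-C1 carry constructs B and C, all expressed from the constitutive 35S promoter; RNAi-B1 and RNAi-C1 have 3 samples and the A lines 2 each. Control-1, Control-2 and Control-3, with 3, 2 and 3 samples, carry the same kind of vector without HSP90 sequence, and each transgenic line is a single insertion line.

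The lines were grown in 3 experiments. The first held RNAi-A1, RNAi-A3 and Control-2, the second held the remaining RNAi lines beside Control-1 and Control-3, and the third held Col-0 and all HSP90-TDNA lines. The experiment of *hsp90.2-3* is not named in the sources used here, so the mutation and the growth of that line cannot be told apart. An array of RNAi-A3 sample 2 stood apart from the rest, with a correlation of 0.50 with the median array on the log2 scale against 0.976 to 0.988 for the others, and was left out. Of the leaf markers, *RCA* (Rubisco activase) had signals of 15796 to 24497 over all samples. The root marker *EXPA7* (an expansin of root hairs) was dim at 6.0 to 139, with means of 52.3 in *hsp90.2-3* and 62.0 in Col-0, and *PYK10* (a beta-glucosidase abundant in roots) had 2021 to 4814. No probe set of the flower markers was tested, and no probe set is paired with an HSP90 gene in the table used here, so the levels of the targeted genes were not analysed here. In pooled tissue, fewer cells of a type and less RNA per cell cannot be told apart.

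Of the 14520 probe sets with a mean signal over 100 in *hsp90.2-3*, 323 had a log2 change of at least 1 against Col-0. At least 1 HSP90-TDNA line was at or over its limit for 298 of these 323 (92.3%, beside 8.29% of the 14520), among them HSP90.3-TDNA for 283, HSP90.2-TDNA for 190 and HSP90.1-TDNA for 136. The HSP90-TDNA lines and *hsp90.2-3* share the Col-0 samples, so a low or high value in Col-0 enters all 4 changes. At least 1 of RNAi-A2, RNAi-B1 and RNAi-C1, which do not share those samples, was at or over its limit for 283 of the 323 (87.6%, beside 25.0% of the 14520): RNAi-B1 for 240, RNAi-A2 for 215 and RNAi-C1 for 110. The HSP90-TDNA limits by themselves left 25 probe sets, the RNAi limits by themselves left 40, and both together left the 2 members. With both limits widened by 0.1 there were 6, and with both widened by 0.2 there were 13. The rule also left out 3 genes by name, *WRKY6*, *WRKY53* and *BZIP60*, and none of them met the limits: their HSP90.3-TDNA changes were 0.69, 1.28 and 0.64.

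**Figure D1:**
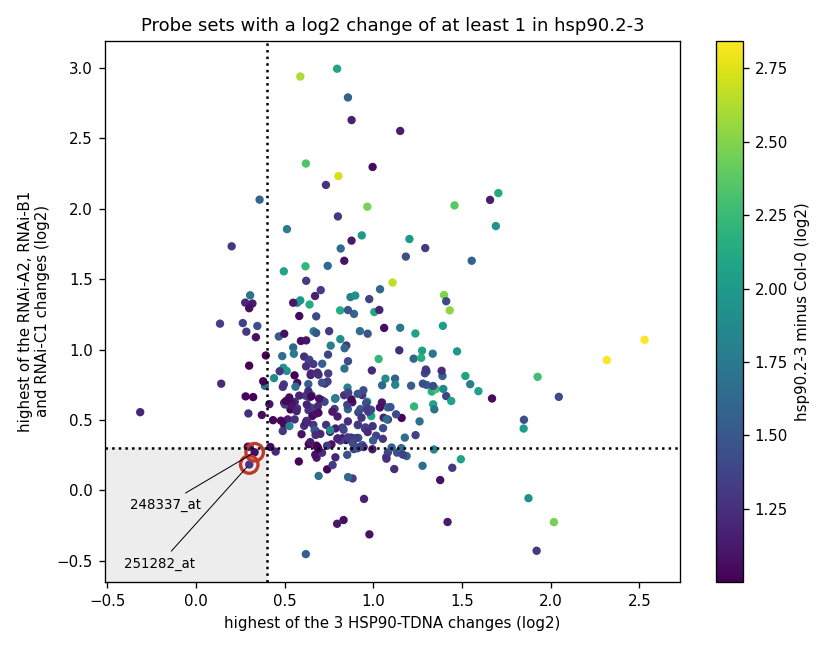
Each point is 1 of the 323 probe sets with a log2 change of at least 1 in *hsp90.2-3* against Col-0, placed by the highest of its 3 HSP90-TDNA changes (x axis, log2) and the highest of its RNAi-A2, RNAi-B1 and RNAi-C1 changes (y axis, log2) and coloured by its change in *hsp90.2-3*. The dotted lines are the limits of 0.4 and 0.3, and only the 2 circled members lie in the shaded corner below both.

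The first member, 251282_at, was dim to moderate in signal and stood highest in *hsp90.2-3*. Its signals were 343, 333 and 323 in the 3 *hsp90.2-3* samples and 113, 153 and 116 in the 3 Col-0 samples. All 3 *hsp90.2-3* samples were above all 32 other samples of the series. The rule picks a high level in *hsp90.2-3* over Col-0, so separations of this kind are partly built in for both members. The share of all probe sets with them was not counted. The mean was 333 ± 10.0 (SD, n = 3) against 127 ± 22.5 (SD, n = 3), a ratio of 2.62 on the linear scale and a change of 1.295 on the log2(signal + 16) scale. The spread between the *hsp90.2-3* samples, an SD of 0.04 on the log2 scale, was the smallest of the 13 lines for this probe set.

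In the HSP90-TDNA lines 251282_at varied widely. HSP90.1-TDNA had 82.1, 165 and 274, HSP90.2-TDNA had 114, 132 and 263, and HSP90.3-TDNA had 27.8, 100.2 and 163. Sample 3 was the highest in each of the 3 lines and lay above every Col-0 sample, while sample 1 of HSP90.1-TDNA and samples 1 and 2 of HSP90.3-TDNA lay below them. The line changes against Col-0 were 0.28, 0.30 and -0.55, and the within-line SDs on the log2 scale reached 1.04, in HSP90.3-TDNA. Its place under the limit of 0.4 in HSP90.1-TDNA and HSP90.2-TDNA was thus that of a mean over samples far apart, and sample 3 of either line by itself would have been over it.

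The RNAi lines that the rule used were each set against 2 control lines. Control-1 had 173, 165 and 232 and Control-3 had 141, 164 and 166. RNAi-A2 had 180 and 208, RNAi-B1 had 167, 168 and 186, and RNAi-C1 had 261, 173 and 168. All 3 RNAi lines overlapped the range of Control-1, with 1 RNAi-C1 sample above it. Every sample of the 3 lines was above every Control-3 sample, the lowest at 167 against 166. How many of all probe sets were separated like this was not counted. RNAi-C1 had the largest change of these lines, 0.18, and RNAi-A2 and RNAi-B1 had 0.16 and 0.01.

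The second member, 248337_at, was bright, and its raise turned on the control it was set against. Its signals were 6026, 4543 and 5079 in *hsp90.2-3* and 2289, 1764 and 3756 in Col-0, which do not overlap. The means were 5216 ± 751 (SD, n = 3) and 2603 ± 1032 (SD, n = 3), a ratio of 2.004 and a log2 change of 1.06, just over the limit of the rule. Control-1, with 5004, 5092 and 4834, lay within the range of *hsp90.2-3*, and 3 of the 11 control samples and 11 of the 32 other samples were at or above its lowest sample. The change of *hsp90.2-3* was 0.06 against Control-1, 0.56 against Control-3 and 1.26 against Control-2. In level, *hsp90.2-3* was thus not set apart from all other lines for this probe set. Its line means ran from 2247 in Control-2 and 2603 in Col-0 to 4977 in Control-1, 5070 in RNAi-B1 and 5216 in *hsp90.2-3*. Control-1, Control-2, Control-3 and RNAi-B1 belong to other experiments than Col-0, so experiment and line cannot be told apart in these differences.

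For 251282_at the same set of comparisons gave a positive change against every control line. *hsp90.2-3* was higher by 1.295 than Col-0, by 1.03 than Control-2, by 1.02 than Control-3 and by 0.78 than Control-1, with no overlap between its samples and the 11 control samples. Col-0, Control-1 and Control-3 were named in the rule, and the share of all probe sets without such overlap was not counted. Control lines other than Col-0 belong to other experiments, and the experiment and the line cannot be told apart in these differences.

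The samples of the third experiment moved 248337_at in the same order in each line. HSP90.1-TDNA had 2641, 1522 and 4620, HSP90.2-TDNA had 3770, 1587 and 5056, and HSP90.3-TDNA had 3027, 1851 and 4933. In these 3 lines and in Col-0, sample 2 was the lowest and sample 3 the highest. In *hsp90.2-3* sample 2 was also the lowest, but sample 1 was the highest. The within-line SDs on the log2 scale were 0.55 to 0.86 in Col-0 and the 3 HSP90-TDNA lines. They were 0.04 to 0.19 in the 5 lines of the second experiment. Over all 16712 probe sets tested, the median within-line SD was 0.18 in the third experiment and 0.14 in the lines of the second experiment with 3 samples. Samples of the second experiment were tight: Control-3 had 3014, 3770 and 3837, RNAi-A2 had 4932 and 4455, RNAi-B1 had 5647, 5028 and 4536, and RNAi-C1 had 4191, 4839 and 5155. RNAi-A2, RNAi-B1 and RNAi-C1 lay above every Control-3 sample and overlapped or lay near Control-1. Their changes against the mean of both controls were 0.16, 0.27 and 0.17. How many of all probe sets lay above Control-3 in this way was not counted.

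**Figure D2:**
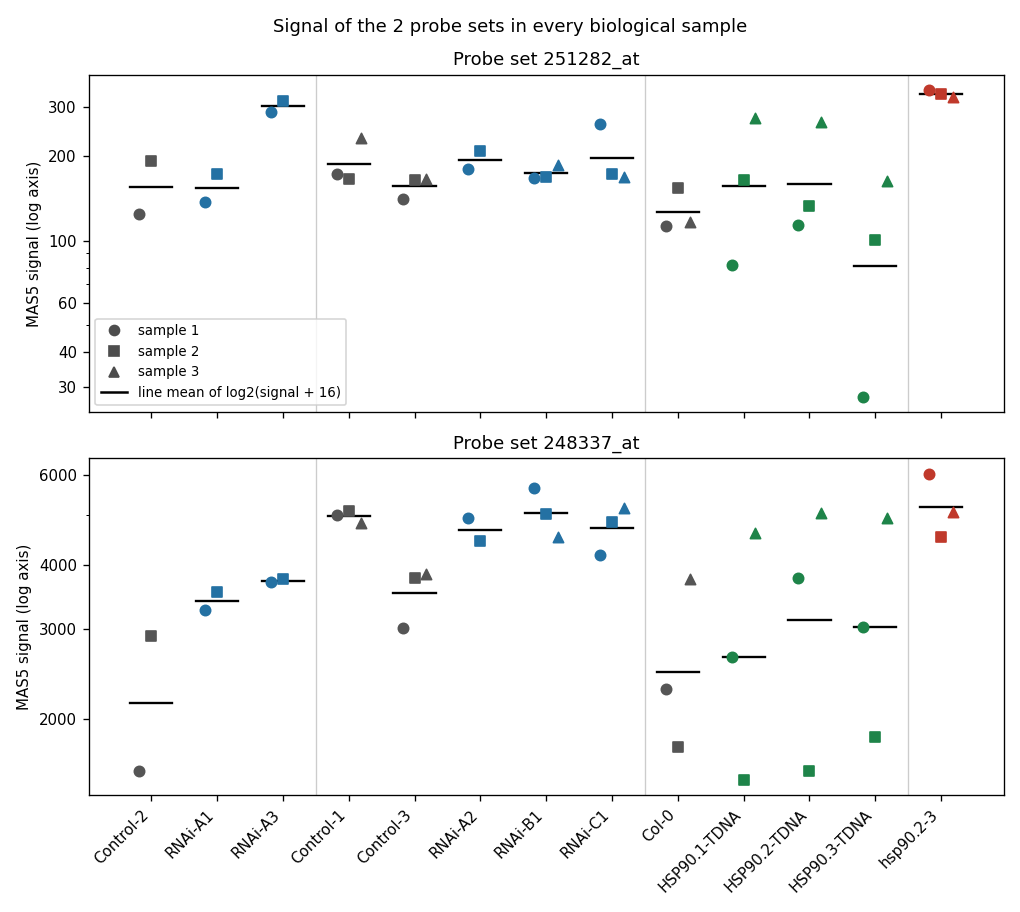
MAS5 signal (log axis) of 251282_at, above, and 248337_at, below, in every biological sample of the 13 lines, with the sample number as the marker and a bar at the line mean (control lines grey, RNAi lines blue, HSP90-TDNA lines green, *hsp90.2-3* red). The 3 *hsp90.2-3* samples of 251282_at are above every other sample, while for 248337_at Control-1 lies at the same level as *hsp90.2-3*. For 248337_at sample 2 is lowest in Col-0, the 3 HSP90-TDNA lines and *hsp90.2-3*.

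Single samples of Col-0 carried much of the second member's standing. Without Col-0 sample 2 the change of 248337_at in *hsp90.2-3* was 0.82, and without *hsp90.2-3* sample 1 it was 0.95, both under 1. Without Col-0 sample 3 it was 1.36, but the changes in HSP90.2-TDNA and HSP90.3-TDNA were then 0.63 and 0.59, over their limit. The change of 251282_at stayed between 1.22 and 1.42 with any 1 sample of the 2 lines left out. Without Col-0 sample 2, however, its HSP90.1-TDNA and HSP90.2-TDNA changes were 0.40 and 0.43, no longer under 0.4.

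RNAi-A1 and RNAi-A3 were not used by the rule, so the members could be tested there against Control-2, which was grown with them. For 251282_at, RNAi-A3 had signals of 288 and 314, Control-2 had 124 and 192, and RNAi-A1 had 137 and 173. Both RNAi-A3 samples were above both Control-2 samples and second only to *hsp90.2-3* in the series, and RNAi-A1 lay within the range of Control-2. With 2 samples a line such a separation says little, and its share over all probe sets was not counted. The change in RNAi-A3 was 0.89 (SE 0.44, 95% interval -0.02 to 1.80), with an unadjusted p of 0.0541 and an adjusted p of 0.899 by limma. Without sample 1 or sample 2 of Control-2 it was 0.61 or 1.17. The change in RNAi-A1 was -0.01 (SE 0.44, adjusted p = 0.9998 by limma).

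For 248337_at both lines were above both Control-2 samples. There were 2 samples a line, and the share of all probe sets separated in this way was not counted. RNAi-A3 had 3701 and 3753, RNAi-A1 had 3262 and 3537, and Control-2 had 1586 and 2909. The change was 0.79 in RNAi-A3 (SE 0.45, 95% interval -0.14 to 1.72, adjusted p = 0.943 by limma) and 0.66 in RNAi-A1 (SE 0.45, adjusted p = 0.9998 by limma). Both values turned on the Control-2 samples: without sample 1 of Control-2 they were 0.36 in RNAi-A3 and 0.22 in RNAi-A1, and without sample 2 they were 1.22 and 1.09. The 2 Control-2 samples differed more than the samples of either RNAi line, with an SD of 0.61 on the log2 scale against 0.01 in RNAi-A3 and 0.08 in RNAi-A1.

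No member passed the test in these lines. Neither of the 2 members was called by limma in RNAi-A1, where 0.00598% of the 16712 probe sets tested were called, nor in RNAi-A3, where 0.012% were. In the mean of both lines, where 0.0239% were called, the changes were 0.44 for 251282_at and 0.72 for 248337_at, and 0 of the 2 were called. Without sample 1 of Control-2 these means were 0.16 and 0.29, and without sample 2 they were 0.72 and 1.16. At an unadjusted p under 0.05, which 4.3% of all probe sets reached in RNAi-A1, 5.55% in RNAi-A3 and 4.1% in the mean of both, the count was also 0 in each, as it was with the methods' t-test on sample values. The Methods give that test for experiments without technical replicates and another for those with them, as here, which was not run. With only the samples of this experiment in the limma fit, the unadjusted p in RNAi-A3 was 0.00685 for 251282_at and 0.0292 for 248337_at, with adjusted p-values of 0.696 and 0.769. The median change of the 2 members was 0.84 in RNAi-A3 and 0.32 in RNAi-A1, beside -0.01 and 0.01 over all probe sets tested. In RNAi-A3 the changes lay at percentile 99.6 of all probe sets for 251282_at and 99.3 for 248337_at, and in RNAi-A1 at 46.5 and 99.1. These figures are descriptions that rest on 2 samples a line.

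RNAi-A1 and RNAi-A3 carry the same construct, and the difference between them was tested too. It was -0.90 for 251282_at (RNAi-A1 minus RNAi-A3, SE 0.44, unadjusted p = 0.0524, adjusted p = 0.707 by limma) and -0.13 for 248337_at (adjusted p = 0.983 by limma). Neither was called, where 0.012% of all probe sets were, and neither passed an unadjusted 0.05, which 7.14% did. For 251282_at the unadjusted p was under 0.05 in 6 of 15 alternatives, the lowest being 0.0066 with only the samples of this experiment in the limma fit (adjusted p = 0.526). The signals of 251282_at did not overlap between the 2 lines. With 2 samples a line this says little, and the share of all probe sets without overlap was not counted.

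Control-3 against Control-1 shows how far 2 lines without HSP90 sequence were apart. The rule used the average of these lines, so the p-values here are descriptions and no independent test. The share of all probe sets without overlap between them was not counted. For 248337_at the samples did not overlap, and the difference was -0.50 (Control-3 minus Control-1, SE 0.37, adjusted p = 0.878 by limma). For 251282_at they overlapped, with a difference of -0.24 (adjusted p = 0.965 by limma). Neither was called by limma, where 0.0419% of all probe sets were, and neither had an unadjusted p under 0.05, which 6.81% had. For 248337_at the unadjusted p was under 0.05 in 3 of 17 alternatives: 0.00131 (adjusted p = 0.126 by limma) with only the samples of this experiment, where its samples lay closer together than in the third, 0.0311 (adjusted p = 0.625 by limma) with a replicate block, and 0.0422 (adjusted p = 0.697) by the methods' t-test.

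**Figure D3:**
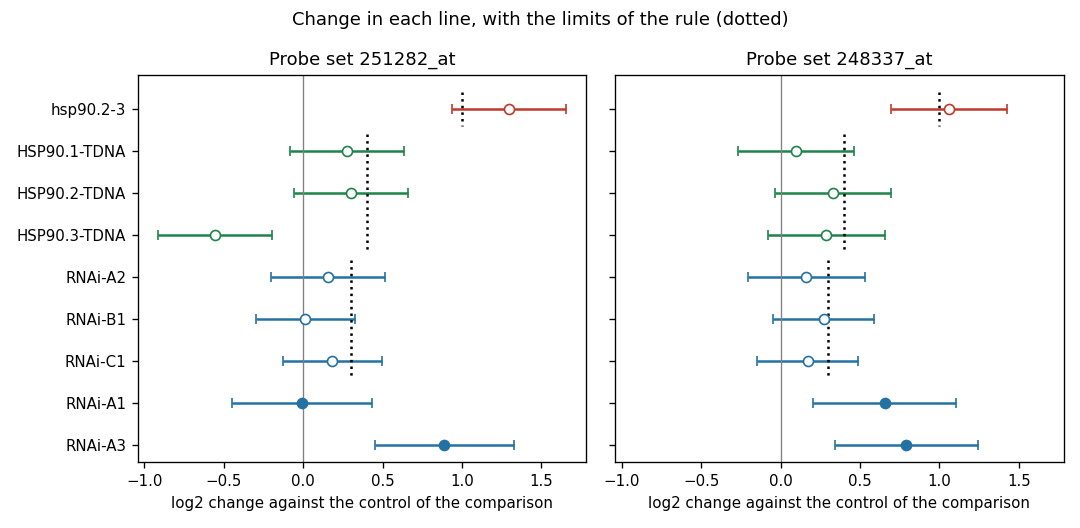
Log2 change (x axis) of each member in the 9 HSP90-reduced lines against the control of the comparison, with bars of 1 SE from limma. Open points are values that the rule used and filled points are RNAi-A1 and RNAi-A3; the dotted lines mark the limits of 1, 0.4 and 0.3, which all open points meet, and the filled points run from -0.01 to 0.89.

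**Figure D4:**
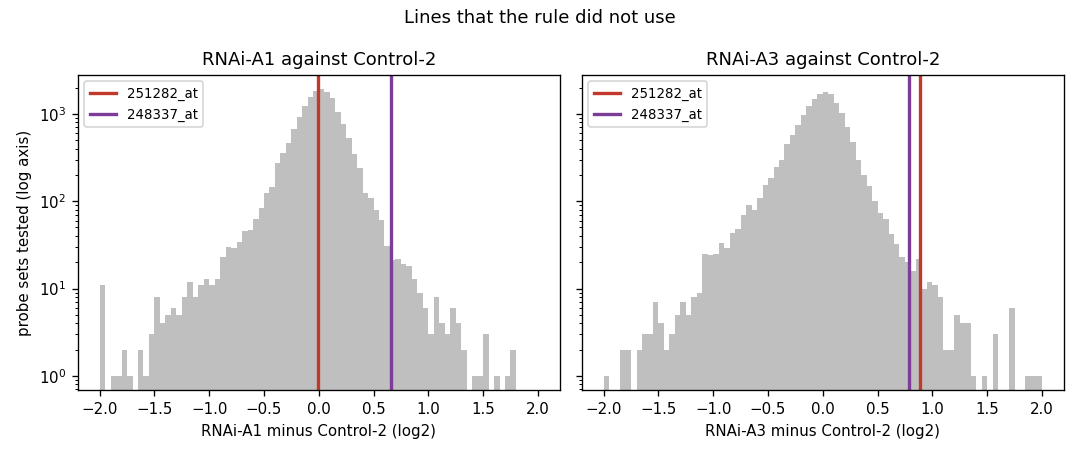
Distribution of the log2 changes of all 16712 probe sets tested (y axis, number of probe sets on a log axis, values beyond 2 drawn at 2) in RNAi-A1, left, and RNAi-A3, right, with a vertical line at each member. In RNAi-A3 both members lie in the upper tail, at 0.79 and 0.89, and in RNAi-A1 251282_at lies at the centre.

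The lines can be ordered by the mean level of each member. For 251282_at the order from the top was *hsp90.2-3*, RNAi-A3, RNAi-C1, RNAi-A2 and Control-1, with Col-0 and HSP90.3-TDNA at the bottom. *hsp90.2-3* and RNAi-A3 did not overlap, with 323 as the lowest and 314 as the highest sample, and RNAi-A3 lay above all RNAi-C1 samples. Shares of all probe sets with such gaps were not counted. From RNAi-C1 down each line overlapped the next. For 248337_at the order was *hsp90.2-3*, RNAi-B1, Control-1, RNAi-C1 and RNAi-A2, each overlapping the next, with Col-0 and Control-2 at the bottom. Across the 35 samples the log2 levels of the 2 members had a Pearson correlation of 0.47, and of 0.40 over the 32 samples without *hsp90.2-3*. The points share lines and experiments, so these correlations are descriptions.

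The named genes whose levels followed a member most closely over the 35 samples were looked up by Pearson correlation among probe sets with 1 gene, a choice made after the values were seen. These samples include *hsp90.2-3* and Col-0, so a raise of such genes in *hsp90.2-3* is partly built into the choice. For 248337_at they were *COR47* (0.79), a dehydrin induced by cold and drought, *AT1G51090* (0.76), *AT1G10090* (0.74), *LTI30* (0.74), another cold-induced dehydrin, and *AT5G27930* (0.73). In *hsp90.2-3* against Col-0, *COR47* changed by 0.95 and *LTI30* by 1.33. *AT1G51090*, *AT1G10090* and *AT5G27930* changed less there, by 0.74, 0.44 and 0.44. *LTI30* passed the limits of the rule in HSP90.2-TDNA, HSP90.3-TDNA, RNAi-A2 and RNAi-B1, at 0.46, 0.50, 0.51 and 0.61. For 251282_at the correlations were lower: *AT1G04230* (0.63), *AT5G04250* (0.60), *COR47* (0.59), *ELC* (0.59) and *PAHX* (0.58), the last a phytanoyl-CoA hydroxylase. *AT5G04250* had a change of 1.13 in *hsp90.2-3* and of 0.82 in RNAi-A2. The changes of *AT1G04230*, *ELC* and *PAHX* in *hsp90.2-3* were smaller, at 0.23, 0.69 and 0.25.

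Several named genes lay just outside the rule. With all limits on the other lines met, *PGM* (a phosphoglycerate/bisphosphoglycerate mutase, *AT1G78050*) had a change of 0.93 in *hsp90.2-3*, *AT2G47550* 0.91 and *AT5G39020* 0.90, all under 1. *PGM* had a change of 0.86 in RNAi-A3 and of -0.16 in RNAi-A1, so that its values, like those of 251282_at, were high in *hsp90.2-3* and RNAi-A3 and not in RNAi-A1. The other two were at -0.51 and -0.26 in RNAi-A3. Among the raised probe sets that missed a limit by less than 0.1, *AT3G56260* had 1.38 in *hsp90.2-3* and 0.31 in RNAi-A2, and *AT4G08850* had 1.08 and 0.31. *AKINBETA1* (a regulatory subunit of the SnRK1 energy-sensing kinase) had 1.02, with 0.43 in HSP90.3-TDNA and 0.50 in RNAi-A2. *AT5G28630* had 1.04, with 0.58 in HSP90.1-TDNA, and *AT1G68500* had 1.28, with 0.49 in HSP90.3-TDNA and 0.42 in RNAi-A2.

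Since neither member has a gene in the probe table, stress and defence genes could not be matched to them, and listed genes are given only for the wider raise in *hsp90.2-3*. Of 192 entries in 9 lists (folding and stress in the endoplasmic reticulum, salicylic acid, jasmonate, camalexin, pattern-triggered immunity, heat-induced chaperones, detoxification, leaf senescence and ethylene), 24 had a probe set with 1 gene that was tested, and 1 of the 24 had a change of at least 1 in *hsp90.2-3*, where 2.05% of all probe sets tested had. It was *PDF1.2*, a plant defensin induced by jasmonate and ethylene, with 1.93 in *hsp90.2-3*, 1.87 in HSP90.2-TDNA, 1.63 in HSP90.3-TDNA and -3.56 in RNAi-A1. *DTX3* (a MATE family transporter) and *HSP23.5* (a small heat shock protein) had 0.999 and 0.97 in *hsp90.2-3*, the first just under 1, and 1.39 and 0.82 in HSP90.1-TDNA. *BIK1* (a kinase of pattern-triggered immunity) had 0.85 in *hsp90.2-3*, 0.38 in HSP90.1-TDNA and 0.31 in RNAi-C1. These 3 genes had the largest changes in *hsp90.2-3* among the tested genes of their lists. The list medians in *hsp90.2-3* were 0.17 for detoxification (6 tested), 0.06 for heat-induced chaperones (5 tested) and 0.63 for pattern-triggered immunity (3 tested). The senescence and ethylene lists had no probe set tested. The other 168 entries had no such probe set, so most genes of these pathways were not tested here.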

How the data were processed

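RNA of 35 biological samples of 13 lines was measured on 38 arrays. The intensity values, as deposited by the authors, are MAS5 signals on a linear scale, with no version given in the submitters' processing notes. The Methods name PLIER instead, but the trimmed mean of every array was close to 500, as MAS5 scaling leaves it. Values were not normalized further; log2(signal + 16) was taken and averaged over the technical replicates of a sample. Neither the 64 array control probe sets nor 1 outlying RNAi-A3 array entered the analysis. Testing was limited to probe sets for which at least 1 line mean exceeded the 35th percentile of all values (signal 91.0), which left 16712. limma 3.58.1 in R 4.3.3 was fitted with 1 mean per line (22 residual degrees of freedom, prior 3.25), and the Benjamini-Hochberg adjustment covered all of them, with an adjusted p under 0.05 as the threshold. The methods' t-test is Welch's on sample values; the two-way ANOVA that the Methods name for experiments with technical replicates was not run. The procedure was tested on simulated data. Samples are separate pools of seedlings, 2 or 3 per line, and the precision is limited by their number. In the main limma fit the p-values rest on 1 spread per probe set, shared over all 13 lines, including those that the rule used. The spreads were unequal: for 248337_at the within-line SDs on the log2 scale were 0.55 to 0.86 in the third experiment and 0.04 to 0.19 in the second. The members and lists were chosen with earlier results of these data known. Genes were named only for the 13513 probe sets with a single gene in the probe table (503 had several and 8730 none), through Entrez IDs. The rule named members with a gene by size of change, list and family, and the 3 nearest to each limit; neither member has a gene, so those outside the limits, the closest in pattern and the listed genes were named after their values were seen. The members' sequences were not analysed here.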

Additional observations from a re-analysis of the deposited data

How the results depend on the processing

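The number of probe sets that met the rule was 2, and 4 with quantile normalization (251282_at among them), 4 with an offset of 4 and 4 with an offset of 64 (both members among them), and 4 with line medians (neither). It was 43, with 251282_at among them, when *hsp90.2-3* was set against the mean of the 4 control lines. With 1 sample of *hsp90.2-3* or Col-0 left out in turn it was 1 to 4, and neither member remained without Col-0 sample 2. No member was called in the 5 comparisons under any alternative run, leave-one-out fits and a rule of unadjusted p under 0.05 by limma with a 1.5-fold change included, and the lowest adjusted p was 0.126. The change of 251282_at in RNAi-A3 was 0.61 to 1.17 and that of 248337_at 0.36 to 1.22, with unadjusted p-values under 0.05 in 6 and 3 of 15 alternatives. The median change of the members in RNAi-A1 was 0.32, and -0.03 without Control-2 sample 1. Directions turned in 3 cases: 251282_at in RNAi-A1 was -0.01 and ranged from -0.29 to 0.28 with 1 sample left out, being 0.15 without RNAi-A1 sample 1 and 0.28 without Control-2 sample 2, and 248337_at in RNAi-A1 minus RNAi-A3 was 0.16 with all arrays kept. A fit that leaves 1 sample in RNAi-A1, RNAi-A3 or Control-2 assumes that it varies like the other lines. Deviations of same-numbered samples had correlations over 0.1 in 0 of 6 pairs in the first experiment, 10 of 26 in the second and 11 of 18 in the third (median 0.13, highest 0.35). Lines of the first experiment have 2 samples, so both numbers give the same correlation and its 6 pairs are not separate values. Since not every pair was over 0.1, the numbers were not used to pair samples, though in the third experiment many deviated together. With a replicate block 0 members were called in each comparison, and the changes in RNAi-A3 were 0.79 for 248337_at (unadjusted p = 0.00697, adjusted p = 0.509 by limma) and 0.89 for 251282_at (0.0197 and 0.696). The causes of these changes were not tested.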
